A study of Homo sapiens with 20 samples.

Results

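BEAS-2B cells sampled some time after an exposure to nickel chloride were set against unexposed cells with little mRNA for ZEB1, a repressor of epithelial genes. The set holds 14 of the study's 20 RNA-seq libraries. On one side stand all 10 libraries whose labels name a period, or a cloning step, after the exposure. On the other stand the 4 unexposed libraries with ZEB1 under 5 CPM (counts scaled to a library total of 1e6 reads), which are Control_3D_3, Control_3D_4, Control_6W_1 and Control_6W_2, called ZEB1-low controls here. The other 2 unexposed libraries, Control_3D_1 and Control_3D_2, are given beside them, and the 4 libraries of Ni_3D and Ni_6W were not used. ZEB1 itself chose the controls, so its values, and all differences between post-nickel cells and ZEB1-low controls, are descriptions of these libraries without a test.

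The study treated BEAS-2B cells, which are human bronchial epithelium made immortal with viral genes, with nickel chloride and sequenced total RNA. Ni_3D+14D (n = 2) is named for a 3-day exposure and a further 14 days, which the labels do not describe. Ni_6W+2W (n = 2) was exposed for 6 weeks, then washed and grown for 2 weeks in medium free of nickel. Ni_clone (n = 6) is 1 library from each of 6 populations grown without nickel from picked single colonies of cells exposed for 6 weeks, at a concentration that the labels write as 100 mM; for the other groups they give no single concentration. Control_6W (n = 2) and Control_3D (n = 4) are the unexposed cells of the 6-week and the 3-day experiment. Each clone descends from 1 colony, and the labels do not say that replicates came from separate cultures, so p-values measure the spread between libraries, which may be technical. No control was labelled as kept for the further 14 days, the 2 weeks or the cloning, so culture time, handling and clone picking cannot be told apart from the earlier nickel exposure.

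ZEB1 is a zinc-finger transcription factor that binds E-boxes, short motifs in the promoters of genes for cell junctions and cell polarity, and represses them. It is known as one of the drivers of the epithelial-mesenchymal transition (EMT), in which epithelial cells lose junctions and gain motility and matrix genes. AP1M2, a subunit of the clathrin adaptor that sorts proteins to the basolateral membrane of epithelial cells, was among the genes lower in post-nickel cells than in ZEB1-low controls. It was 1 of only 3 lower genes among 45 tested epithelial junction and identity genes, of which 7 were higher. Of all genes tested, 9.24% were lower and 12.2% higher, so AP1M2 does not stand for its list. The promoters of ZEB1 and AP1M2 are printed because the comparison turns on the first and because the second carries the motif that ZEB1 binds. Both are from RefSeq (GRCh38.p14), from 250 bases before to 50 bases after the annotated gene start, on the gene's own strand: chr10:31318167-31318466 on the plus strand and chr19:10587263-10587562 on the minus strand. Capitals mark CG pairs in ZEB1 and E-boxes (CACCTG, or CAGGTG on the other strand) in AP1M2.
ZEB1: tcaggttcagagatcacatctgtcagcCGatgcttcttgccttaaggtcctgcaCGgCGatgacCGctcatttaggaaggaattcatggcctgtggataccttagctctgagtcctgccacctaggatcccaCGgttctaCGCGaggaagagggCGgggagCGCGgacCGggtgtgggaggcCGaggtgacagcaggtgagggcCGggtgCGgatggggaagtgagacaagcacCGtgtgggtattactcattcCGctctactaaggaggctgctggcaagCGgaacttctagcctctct
AP1M2: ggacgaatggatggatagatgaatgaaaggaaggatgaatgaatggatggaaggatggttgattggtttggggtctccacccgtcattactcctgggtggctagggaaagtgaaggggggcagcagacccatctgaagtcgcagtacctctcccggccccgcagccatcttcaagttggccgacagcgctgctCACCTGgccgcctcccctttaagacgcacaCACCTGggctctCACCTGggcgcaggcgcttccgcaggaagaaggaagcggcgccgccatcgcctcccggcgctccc
The ZEB1 window held 17 CG pairs and 1 E-box, and the AP1M2 window held 3 E-boxes. An E-box of either strand stood in 20.6% of all 27305 promoter windows, so its presence is a description of the window and not evidence of binding.

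ZEB1 mRNA (gene at chr10:31610064-31818742, plus strand, in the files' hg19 coordinates) was measured at 10.4 and 11.8 CPM in Ni_3D+14D, 9.91 and 16.3 CPM in Ni_6W+2W and 13.7, 7.77, 8.03, 9.60, 9.06 and 14.5 CPM in the 6 clones. It was at 1.04, 1.78, 0.987 and 0.603 CPM in Control_3D_3, Control_3D_4, Control_6W_1 and Control_6W_2. Every post-nickel library therefore lay above every ZEB1-low control. Control_3D_1 and Control_3D_2, also never exposed, carried 12 and 12.5 CPM, inside the range of the post-nickel cells. The values next to the 5 CPM limit were 1.78 CPM in Control_3D_4 below it and 12 CPM in Control_3D_1 above it. The log2 fold change of post-nickel cells over ZEB1-low controls was 3.40, and with 1 mean per group it was 3.40 for Ni_3D+14D, 3.64 for Ni_6W+2W and 3.32 for the clones.

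**Figure D1:**
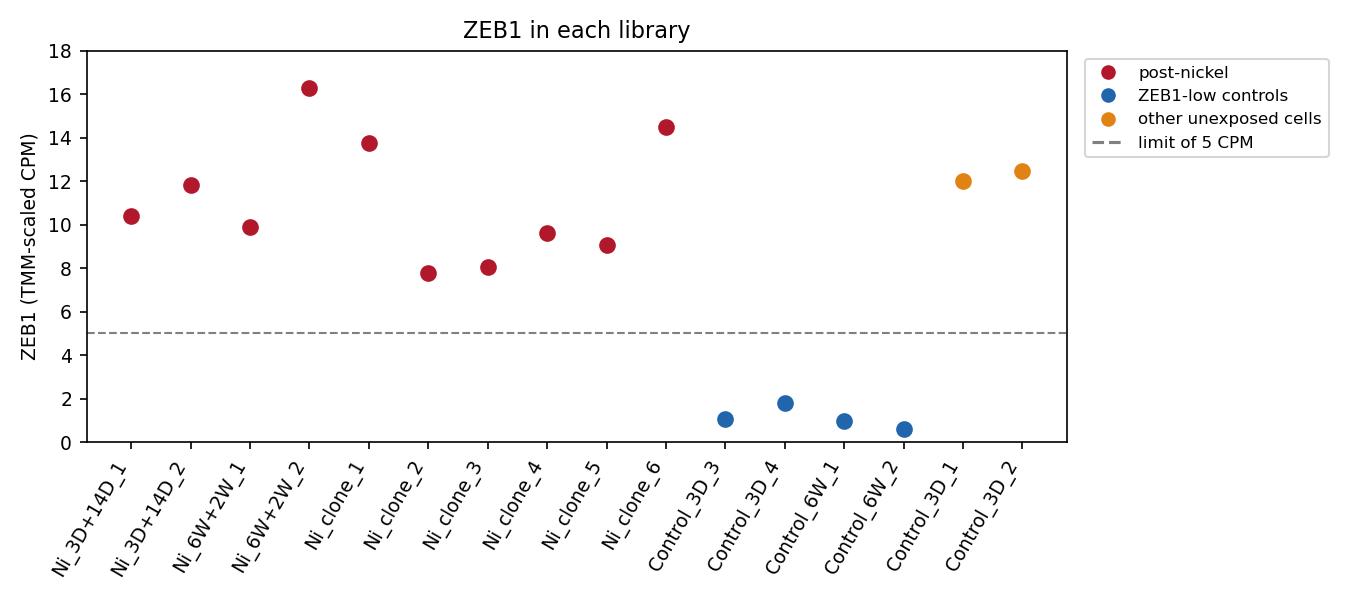
ZEB1 mRNA in CPM (y axis) in each library of the 3 post-nickel groups, the ZEB1-low controls and Control_3D_1 and _2; each point is 1 library and the dashed line is the 5 CPM limit. The 10 post-nickel libraries sit between 7.77 and 16.3 CPM, the 4 ZEB1-low controls between 0.603 and 1.78 CPM, and Control_3D_1 and _2 at 12 and 12.5 CPM.

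Total counts ran from 16524990 to 33733301 in post-nickel libraries, from 8609243 to 26529403 in ZEB1-low controls and from 20538658 to 45764825 in Control_3D_1 and _2. The epithelial keratin genes KRT8 and KRT18 were measured at 376 to 830.1 and 206 to 386 CPM in post-nickel cells and at 543 to 647 and 205 to 319 CPM in ZEB1-low controls. EPCAM stayed under 6 CPM in all 16 libraries and the basal-cell factor TP63 under 1 CPM in all 16. CDH1, E-cadherin, stayed under 1 CPM in all 10 post-nickel libraries. The keratin gene KRT19 was at 0.230 to 2.34 CPM in post-nickel cells and gave 1 read in the ZEB1-low controls. Of these markers only KRT8 and KRT18 were high on both sides, and they were named after their values were seen. The markers given here are thus no test of the bronchial epithelial label. Control_3D_1 alone held CDH1 at 11.5 CPM and KRT19 at 13.4 CPM, against 0.246 and 2.46 CPM in Control_3D_2. Summed CPM of the 16 markers of luminal oestrogen-responsive cells was 97.6 to 159.9 CPM in post-nickel libraries, 97.9 to 149.6 CPM in ZEB1-low controls and 94.1 to 225 CPM in Control_3D_1 and _2. Control_6W_2 stood apart among the ZEB1-low controls in genes of the metal response: MT1X, a metallothionein that binds zinc and other metals, was at 71.8 CPM there and at 4.33 to 7.46 CPM in the other 3. SLC30A1, the zinc exporter of the cell surface, was at 193 CPM in it and at 22.4 to 28 CPM in the other 3. The part of these libraries in the differences below was not tested beyond leaving each out in turn.

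Of 14065 genes tested, 3015 (21.4%) had an adjusted p under 0.05 between the 10 post-nickel libraries and the 4 ZEB1-low controls, 1716 (12.2%) higher in post-nickel cells and 1299 (9.24%) lower. These shares are the background for every count in this comparison, and nothing is read from them because the same contrast chose the controls. The rises were the larger changes: 745 exceeded 2-fold, against 124 of the falls. All 10 post-nickel libraries lay above all 4 controls for 796 genes (5.66%) and below them for 574 (4.08%). Control_6W_2 was the highest of the 4 controls in 650 of the 1299 falls and the lowest in 683 of the 1716 rises. The count of genes was 2100 without Control_3D_3 and 2664 without Control_6W_2.

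The 2 unexposed libraries with ZEB1 mRNA lay closer to the post-nickel cells than to the other unexposed cells in most of these genes. Their mean log2 level was nearer to the post-nickel mean in 1439 of the 1716 rises (83.9%) and in 982 of the 1299 falls (75.6%), against 64.2% of all genes tested. Among the 745 rises over 2-fold it was nearer in 87.7%. The median difference in those 745 genes was 1.18 log2 units for post-nickel cells over ZEB1-low controls, 1.25 for Control_3D_1 and _2 over ZEB1-low controls, and -0.02 for post-nickel cells over Control_3D_1 and _2. In these 745 genes, then, 2 libraries of cells never exposed to nickel stood at about the level of post-nickel cells. For the 1299 falls the medians were -0.50, -0.37 and -0.13 in the same order. All these genes were picked because ZEB1-low controls differed from post-nickel cells, and ZEB1 split the controls. Other libraries then tend to lie nearer to the post-nickel mean, so these shares and medians are descriptions and not a result.

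A set of genes gave no read at all in the 4 ZEB1-low controls. Of 41 such genes among those tested, 22 averaged at least 1 CPM in post-nickel cells, and all 22 averaged at least 1 CPM in Control_3D_1 and _2. These genes were picked for having no read in the ZEB1-low controls and passed the filter through their reads in post-nickel cells. The matching share over all tested genes was not worked out, so nothing is read from the level in Control_3D_1 and _2. Only OSBPL6 and GALC reached 1 CPM in all 10 post-nickel libraries, followed by EYA2 and ZNF347 in 9 and by MGMT, TRIM58, EPDR1 and C14orf132 in 8. The number of the 22 genes at or above 1 CPM was 21 and 18 in Ni_3D+14D, 7 and 21 in Ni_6W+2W, 10, 19, 14, 15, 7 and 12 in the clones, and 22 and 19 in Control_3D_1 and _2. In bulk RNA, fewer cells with a transcript and less of it per cell cannot be told apart. The set was nearly complete in some post-nickel libraries and mostly absent in others of the same group.

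OSBPL6, a lipid-binding protein of the oxysterol-binding family, was at 6.76 and 7.33 CPM in Ni_3D+14D, 5.08 and 6.74 CPM in Ni_6W+2W and 9.56, 6.53, 8.68, 5.84, 6.25 and 7.64 CPM in the clones, against no read in any ZEB1-low control. Against a floor of 3 reads over the 4 controls together, its level in post-nickel cells was at least 159.8-fold higher, and it was 6.91 and 6.99 CPM in Control_3D_1 and _2. GALC, the lysosomal enzyme that breaks down galactosylceramide, ranged from 2.37 to 9.14 CPM in post-nickel cells and was 10.4 and 10.2 CPM in Control_3D_1 and _2, at least 135-fold above the floor. OSBPL6 kept to a narrow range over the 10 post-nickel libraries, and MGMT did not. MGMT, the enzyme that removes methyl and other alkyl groups from guanine in DNA, was at 5.93 and 6.58 CPM in Ni_3D+14D, 0.486 and 3.41 CPM in Ni_6W+2W and 0.0464, 8.67, 2.46, 8.13, 1.52 and 17.9 CPM in the clones. Clone 1 was near 0 and clone 6 the highest, above Control_3D_1 and _2 with 11.6 and 8.76 CPM, and the pooled level was at least 118-fold above the floor.

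EYA2, a transcriptional co-activator and phosphatase, spanned 0.876 to 23.4 CPM in post-nickel cells (at least 205-fold above the floor), with Ni_6W+2W_1 and clones 5 and 6 low. TRIM58, an E3 ubiquitin ligase, spanned 0.0464 to 10.6 CPM, and EPDR1, an ependymin-related secreted protein, 0.935 to 16.6 CPM. Their pooled levels were at least 134-fold and 125-fold above the floor. NCAM1, a neural cell adhesion molecule, averaged 4.64 CPM in post-nickel cells, at least 100.2-fold above it. Floors and intervals cover counting error only.

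The promoters of OSBPL6 and GALC are shown because both genes had reads in every post-nickel library and none in any ZEB1-low control. They are RefSeq windows of the same length and build as above, at chr2:178194262-178194561 on the plus strand and chr14:87993133-87993432 on the minus strand, with CG pairs in capitals.
OSBPL6: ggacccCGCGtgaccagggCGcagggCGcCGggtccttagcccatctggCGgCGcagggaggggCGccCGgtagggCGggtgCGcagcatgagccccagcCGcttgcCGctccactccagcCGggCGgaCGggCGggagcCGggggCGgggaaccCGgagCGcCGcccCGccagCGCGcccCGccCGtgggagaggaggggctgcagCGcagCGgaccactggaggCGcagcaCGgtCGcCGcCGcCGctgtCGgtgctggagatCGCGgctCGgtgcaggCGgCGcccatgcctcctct
GALC: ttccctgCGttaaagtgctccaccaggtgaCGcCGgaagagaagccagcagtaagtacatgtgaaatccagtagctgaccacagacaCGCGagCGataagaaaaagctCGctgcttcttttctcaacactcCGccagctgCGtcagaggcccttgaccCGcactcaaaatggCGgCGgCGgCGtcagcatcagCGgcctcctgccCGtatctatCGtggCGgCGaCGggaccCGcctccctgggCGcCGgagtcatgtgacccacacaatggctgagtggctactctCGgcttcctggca
OSBPL6 held 41 CG pairs and GALC 24 CG pairs. Of the 22 genes, 17 had a promoter entry under their symbol, and 15 of these (88.2%) held at least 10 CG pairs. The share was 88.6% among the 10239 tested genes with an entry and 56.0% among all promoters. The share in the set was thus close to that of the genes measured with it. An E-box was found in 4 of the 17 (23.5%), and in 18.2% of tested genes with an entry.

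Among the named rises with 1 to 3 reads in the ZEB1-low controls was MARK1. MARK1, a kinase that regulates microtubules, had a lowest, median and highest value of 4.32, 13.8 and 16.6 CPM in post-nickel cells and at 0.0386, 0, 0 and 0.0603 CPM in the 4 controls. The pooled ratio was 437-fold (95% interval 121 to 3608), and only clone 1 stood clearly below the other post-nickel libraries. CLSTN2, a calsyntenin of synaptic membranes, had a ratio of 577-fold (95% interval 159.6 to 4765) but a wide range, 0.409 to 66 CPM, with clone 4 high and clone 5 low. PTPRN, a phosphatase-like protein of secretory vesicles, had 443-fold (95% interval 79.4 to 17513). ROBO1, a receptor for the guidance protein SLIT, had 301-fold (95% interval 83.3 to 2489), and CPVL, a carboxypeptidase, 270.4-fold (95% interval 74.8 to 2235). CADM3, a neural adhesion molecule with more reads than these in the ZEB1-low controls, averaged 40.3 ± 25.6 CPM in post-nickel cells and 0.0688 ± 0.0806 CPM in ZEB1-low controls (SD, n = 10 and 4), a log2 fold change of 8.79. Control_3D_1 and _2 carried CADM3 at 56.8 and 35.1 CPM, within the range of the post-nickel cells.

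Apart from BCHE, the 12 named falls were smaller than the 12 named rises. BCHE, the plasma and tissue enzyme butyrylcholinesterase, gave 3 reads in all 10 post-nickel libraries together and 614 in the 4 ZEB1-low controls, where it was at 3.90, 5.57, 3.78 and 23.9 CPM. The inverse ratio was 666-fold (95% interval 227 to 3237), Control_6W_2 being the highest, and Control_3D_1 and _2 had no read. The log2 fold change of BCHE was -8.92, and -7.84 without Control_6W_2. LOC100507377, outside the naming rule by its symbol and singled out after its values were seen, had no read in the 10 post-nickel libraries and 70 in the ZEB1-low controls, at least 75.9-fold lower against a floor of 3 reads over the 10. PCLO, a scaffold of the presynaptic zone, had a lowest, median and highest value of 0, 0.603 and 1.90 CPM in post-nickel cells and at 4.75, 4.98, 4.28 and 7.90 CPM in ZEB1-low controls, a log2 fold change of -3.07 ± 0.59 (SE). The groups did not overlap, and Control_3D_1 and _2 were low, at 0.514 and 0.0492 CPM.

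AP1M2 (gene at chr19:10683347-10697991, hg19, minus strand) was at 9.60 and 13.7 CPM in Ni_3D+14D, 8.12 and 11.9 CPM in Ni_6W+2W and 11, 17, 16.5, 11.7, 5.67 and 2.99 CPM in the clones. It was at 31.1, 37.7, 37 and 21.2 CPM in the ZEB1-low controls and at 11.7 and 10.7 CPM in Control_3D_1 and _2. All post-nickel libraries and Control_3D_1 and _2 lay below all 4 ZEB1-low controls, and the log2 fold change was -1.54 ± 0.31 (SE). DOCK3, an activator of the GTPase RAC, averaged 2.64 ± 0.743 CPM in post-nickel cells and 10.3 ± 1.76 CPM in ZEB1-low controls (SD, n = 10 and 4), a log2 fold change of -1.95. The kinase gene MAP2K3, which activates p38, averaged 104 CPM in post-nickel cells and 379 CPM in ZEB1-low controls (log2 fold change -1.86). Control_6W_2 alone had 854 CPM of MAP2K3, the other 3 controls 177 to 253 CPM.

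The 12 named falls also held POU4F1, a neural transcription factor (-1.70), NPR1, the receptor for atrial natriuretic peptide (-1.62), the neuronal kinase BRSK2 (-1.41) and DSEL, an epimerase of dermatan sulfate (-1.39). The remaining genes were CERS1, a ceramide synthase (-1.37), P2RX5, an ATP-gated channel (-1.36), SEH1L, a nucleoporin (-1.33), and BCHE above, the numbers in brackets being log2 fold changes. In each of these 12 genes no post-nickel library reached the lowest ZEB1-low control, which the naming rule required. None of the 12 named rises and 12 named falls lost its call with 1 library left out, but MGMT, CLSTN2 and BRSK2 lost it with Control_6W alone and with Control_3D_3 and _4 alone as controls. TRIM58 and DSEL lost theirs with Control_3D_3 and _4 alone, and MGMT also with the replicate block.

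**Figure D2:**
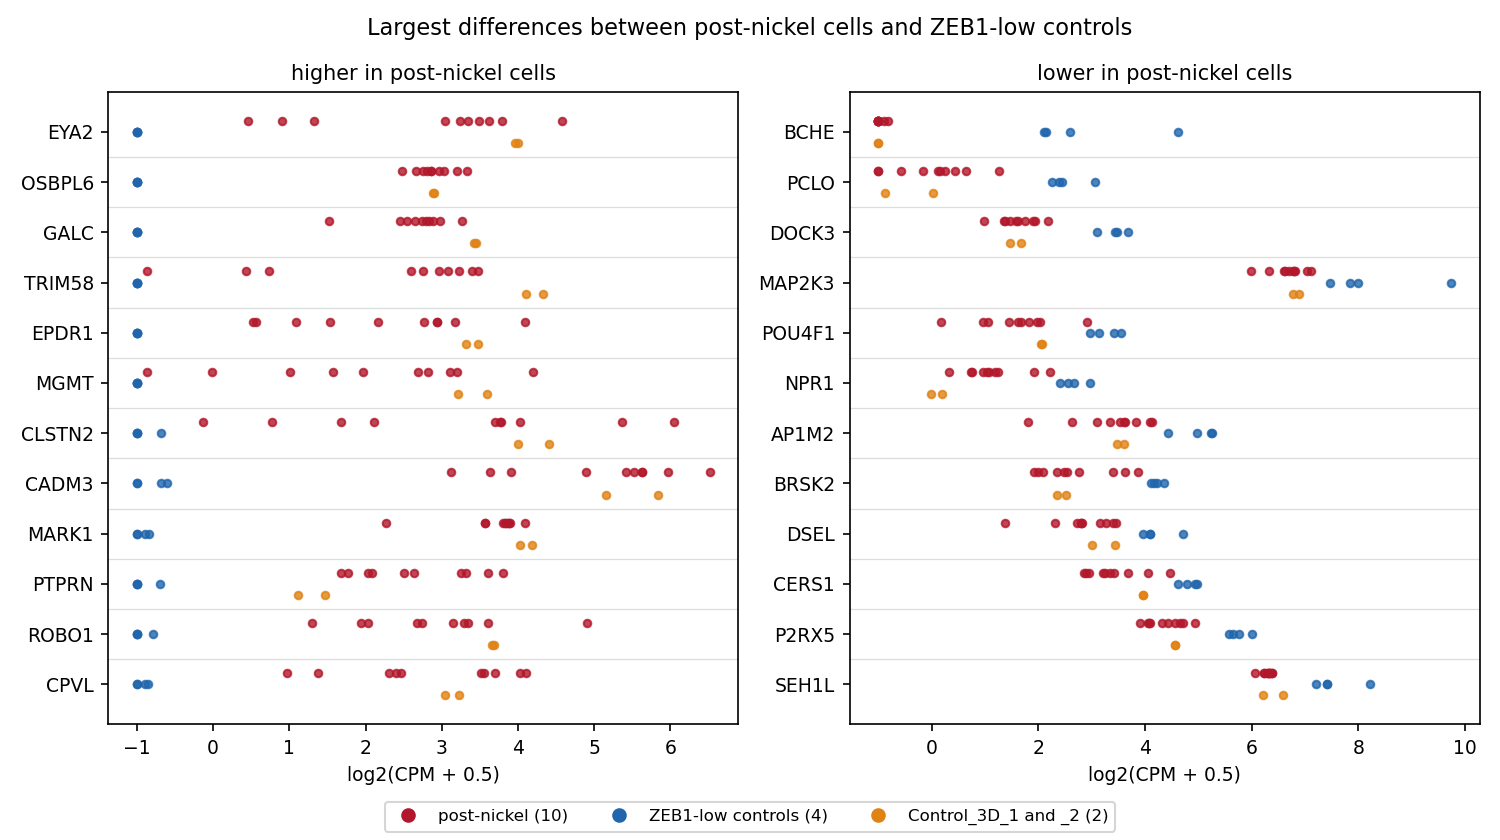
Level of the 12 largest rises (left) and 12 largest falls (right) between post-nickel cells and ZEB1-low controls, as log2(CPM + 0.5); each point is 1 library. The 10 post-nickel libraries do not overlap the 4 ZEB1-low controls, and Control_3D_1 and _2 lie mostly among the post-nickel libraries.

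The comparison with all 6 unexposed libraries uses whole label groups, so no library was chosen by a measured value. It shares its 10 post-nickel and 4 of its 6 control libraries with the comparison above. By the quasi-likelihood test of edgeR, with p adjusted after Benjamini and Hochberg, 1037 of 13885 genes (7.47%) changed, 473 (3.41%) higher and 564 (4.06%) lower in post-nickel cells. Post-nickel libraries lay above all 6 controls for 70 genes (0.504%) and below them for 79 (0.569%). The calls depended on single libraries and on the clones: 384 genes were called without Control_3D_3, 643 without Control_3D_4, 409 without Control_6W_1, 1593 without Control_3D_1, and 21 without the 6 clones.

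SYT11, a synaptotagmin of vesicle traffic, had a lowest, median and highest value of 7.65, 12.2 and 19.8 CPM in post-nickel cells, against 3.32, 3.20, 2.63 and 3.38 CPM in the ZEB1-low controls and 5.12 and 4.77 CPM in Control_3D_1 and _2. All 10 post-nickel libraries exceeded all 6 controls, with a log2 fold change of 1.77 ± 0.22 (SE; adjusted p = 0.00147, edgeR). ZNF516, a zinc-finger transcription factor, had a lowest, median and highest value of 18.5, 24.1 and 42.8 CPM in post-nickel cells, against 11.4, 9.95, 12.8 and 12.8 CPM in ZEB1-low controls and 9.06 and 10.4 CPM in Control_3D_1 and _2. Its log2 fold change was 1.25 ± 0.17 (SE; edgeR adjusted p = 0.0015), and SYT11 and ZNF516 were the 2 of the 12 named rises that kept their call without the clones. SOCS1, a feedback inhibitor of cytokine signalling, averaged 5.10 ± 1.45 CPM in post-nickel cells and 1.94 ± 0.374 CPM in the 6 controls (SD, n = 10 and 6; log2 fold change 1.41, edgeR adjusted p = 0.00294). The naming rule required that the 10 libraries and the 6 controls do not overlap, so the side on which Control_3D_1 and _2 lie in the named genes is not a result.

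ANPEP, the membrane aminopeptidase N, averaged 22.4 ± 7.04 CPM in post-nickel cells and 9.04 ± 1.98 CPM in controls (SD; 1.32 on the log2 scale, edgeR adjusted p = 0.00294). TNS3, a tensin that links integrins to actin, averaged 264 ± 35.6 CPM in post-nickel cells and 114 ± 54.7 CPM in controls (SD; 1.21, edgeR adjusted p = 0.00839). ZDHHC23, a palmitoyl transferase, rose by 1.74 (edgeR adjusted p = 0.00395), PLA2R1, a phospholipase A2 receptor, by 1.58 (0.00477), TMTC1 by 1.32 (0.00708) and MOXD1 by 1.07 (0.013), all as log2 fold changes. BDKRB2, the bradykinin B2 receptor, averaged 9.14 ± 10.9 CPM in post-nickel cells and 2.10 ± 0.730 CPM in controls (SD; 2.16, edgeR adjusted p = 0.0264), and clone 1 with 39.8 CPM lay far above the other 9. Its call was lost without Control_3D_3 (edgeR adjusted p = 0.0726) or Control_6W_1 (0.0621).

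PTPRN had the largest log2 fold change of the named rises, 3.18 ± 0.82 (SE; edgeR adjusted p = 0.0285), with 2.69 to 13.5 CPM in post-nickel cells and 0, 0.118, 0 and 0 CPM in ZEB1-low controls. Control_3D_1 and _2, at 1.66 and 2.26 CPM, lay between the sides. The call was lost without Control_3D_3 (edgeR adjusted p = 0.0549), Control_3D_4 (0.055) or Control_6W_1 (0.0567). RPS6KA2, a ribosomal S6 kinase, had 2.63 ± 0.74 (SE; edgeR adjusted p = 0.0406) and lost its call without any of 10 single libraries: Ni_3D+14D_1 and _2, Ni_6W+2W_2, clones 2, 4 and 6, Control_3D_3, Control_3D_4 and both Control_6W (adjusted p from 0.0538 to 0.0806).

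C1QBP, a mitochondrial matrix protein needed for mitochondrial translation, had a lowest, median and highest value of 126, 203 and 244 CPM in post-nickel cells, against 584, 520.5, 506 and 340.0 CPM in ZEB1-low controls and 276 and 334 CPM in Control_3D_1 and _2. The groups did not overlap, and the log2 fold change was -1.13 ± 0.16 (SE; edgeR adjusted p = 0.00196). EIF5A, a translation factor that carries hypusine, averaged 677 ± 113 CPM in post-nickel cells and 1171 ± 267 CPM in controls (SD; -0.78, edgeR adjusted p = 0.00452). TSR1, a ribosome maturation factor, fell to 131 ± 11.5 CPM in post-nickel cells, against 217 ± 58.8 CPM in controls (SD; -0.72, edgeR adjusted p = 0.00413). The RNA helicase DHX33 (-0.84, 0.00395), the SMN-complex member GEMIN4 (-0.74, 0.00317) and the importin IPO4 (-0.77, 0.00759) also fell, with log2 fold change and edgeR adjusted p in brackets.

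CENPV, a protein of centromere organisation, fell by 0.98 on the log2 scale (edgeR adjusted p = 0.0015), and PEMT, which methylates phosphatidylethanolamine, by 0.77 (0.0015). JAG2, a Notch ligand, had a lowest, median and highest value of 13.9, 28.2 and 41 CPM in post-nickel cells, against 44.5, 46, 48.7 and 51.2 CPM in ZEB1-low controls and 57.8 and 47.9 CPM in Control_3D_1 and _2 (-0.86, edgeR adjusted p = 0.00963). JAG2 and PEMT were the falls that kept their call without the clones. RDH10, a retinol dehydrogenase, was narrow in post-nickel cells, 6.32 to 8.38 CPM, against 11.2, 11.1, 12.6, 37.8, 9.95 and 10.5 CPM in the 6 controls, Control_6W_2 being far the highest of them (-1.10, edgeR adjusted p = 0.0123). The noncoding RNA DANCR fell by 0.79 (edgeR adjusted p = 0.00993) and WTIP, a LIM-domain protein, by 0.71 (0.00759). All 12 falls and 9 of the 12 rises kept their call in each fit without 1 library.

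**Figure D3:**
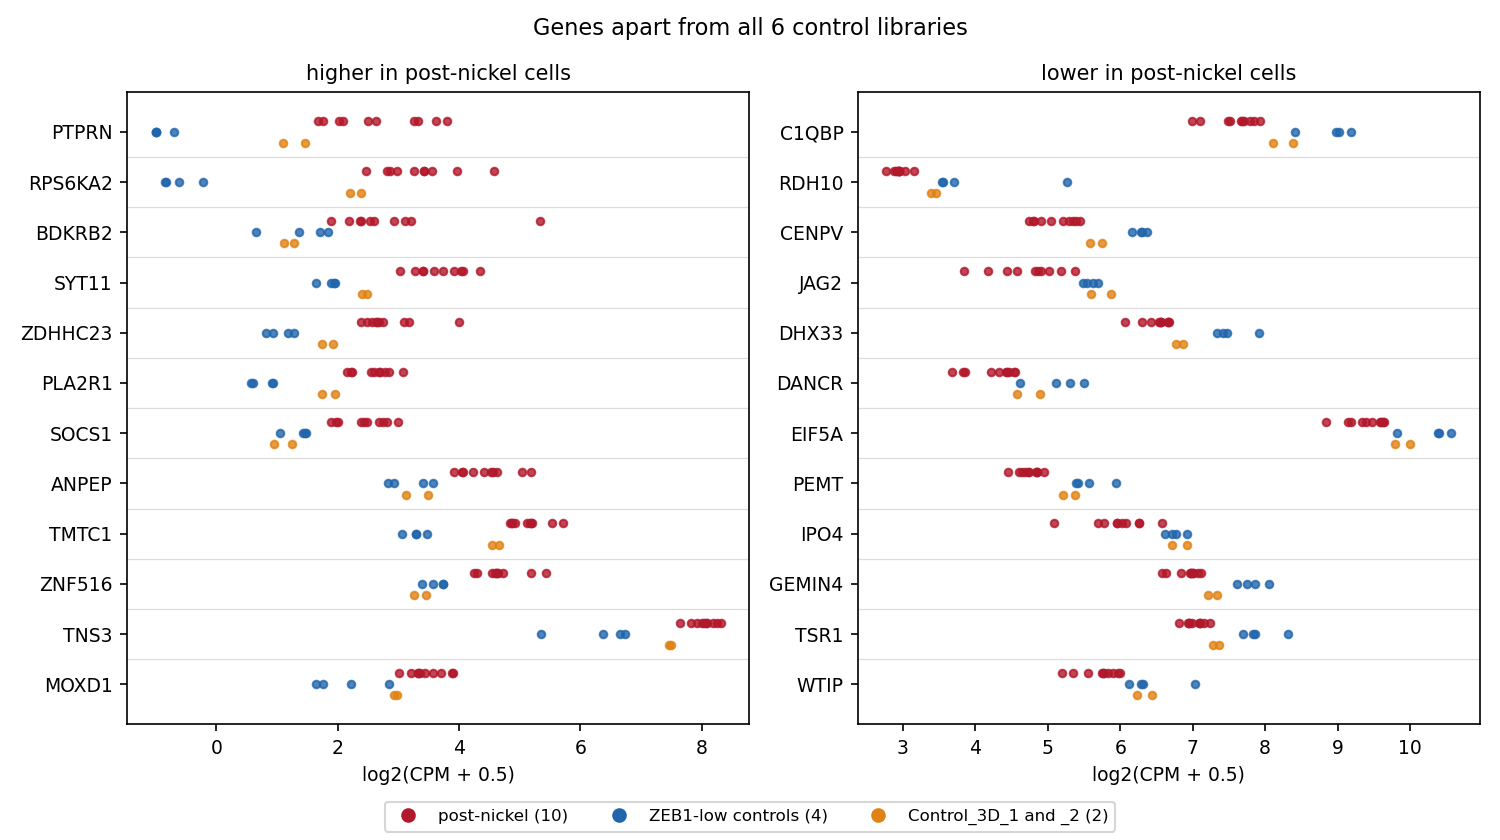
Level of the 12 largest rises (left) and 12 largest falls (right) between post-nickel cells and all 6 unexposed libraries, as log2(CPM + 0.5); each point is 1 library. No post-nickel library overlaps any control in these genes, and Control_3D_1 and _2 lie near the post-nickel cells in PTPRN and TSR1 and among the other controls in ZNF516 and JAG2.

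Where the genes lie on the chromosomes was uneven. Of the 12 named falls against all 6 controls, 7 (C1QBP, CENPV, DHX33, EIF5A, PEMT, GEMIN4 and TSR1) lie on chromosome 17 before 20 Mb. In that stretch 153 of 258 tested genes were lower and 5 higher in post-nickel cells than in ZEB1-low controls, with a median log2 fold change of -0.51. Set against all 6 controls, 103 of its 253 tested genes fell and 0 rose (edgeR), and 28 of the 79 genes below all controls lie there. On the rest of chromosome 17, 74 of 638 were lower and 37 higher in post-nickel cells than in ZEB1-low controls. Of the 12 named rises against all 6 controls, 4 lie in the 7 regions set out next. So do 4 of the 12 named rises and 3 of the 12 named falls against ZEB1-low controls. In the long-exposure comparison below, 6 of 12 named rises and 1 of 12 named falls lie in them.

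Chromosome 15 went the other way. Of its 465 tested genes 256 were higher and 0 lower in post-nickel cells than in ZEB1-low controls, with a median log2 fold change of 0.48. Compared with all 6, 83 of 461 rose and 0 fell. Chromosome 2 beyond 160 Mb held 186 higher and 0 lower genes of 340 (median 0.47), while the stretch before 160 Mb held 49 higher and 61 lower of 579. Taken whole, chromosome 7 (167 higher and 3 lower of 676) and chromosome 9 (130 and 18 of 583) leaned up. So did chromosome 13 (60 and 3 of 241), while chromosome 18 before 10 Mb leaned down (2 and 17 of 40). Within chromosomes 7 and 9 the lean was uneven. Chromosome 7 held 26 and 0 of 48 from 20 to 30 Mb, but 1 and 0 of 39 from 120 to 130 Mb. Chromosome 9 held 25 and 0 of 52 from 90 to 100 Mb, but 2 and 10 of 81 from 30 to 40 Mb. These 7 regions, picked after their values were seen, held 806 of the 1715 rises and 194 of the 1299 falls among 2603 of 14064 genes, with 1 Y-linked gene left out. Of the other 11461 genes 909 were higher and 1105 lower. Some stretches among these leaned as well. Chromosome 20 held 24 higher and 3 lower of 98 from 30 to 40 Mb, and 2 and 15 of 69 in its first 10 Mb. Chromosome 5 held 10 and 0 of 38 from 30 to 40 Mb. The other genes are therefore not a background free of regional differences.

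Library by library, the median level of chromosome 15 genes, relative to each gene's mean over the 16 libraries, was -0.0048 to 0.22 log2 units in post-nickel cells, -0.35 to -0.31 in ZEB1-low controls and 0.06 to 0.09 in Control_3D_1 and _2. On chromosome 17 before 20 Mb it was -0.42 to 0.00 in post-nickel cells, 0.33 to 0.45 in ZEB1-low controls and -0.06 to 0.03 in Control_3D_1 and _2. In both regions the ZEB1-low controls stood apart. Control_3D_1 and _2 lay inside the range of the post-nickel cells on chromosome 15. On chromosome 17 before 20 Mb Control_3D_1 lay just above that range. The regions were picked by their difference from ZEB1-low controls, and ZEB1 split the controls. The place of Control_3D_1 and _2 is therefore a description and not a result. On chromosome 13 the sides overlapped, with -0.27 to 0.29 in post-nickel cells and -0.32 to -0.15 in ZEB1-low controls. Control_3D_1 and _2 stood there at 0.22 and 0.40, Control_3D_2 above every post-nickel library. The sides overlapped on chromosome 7 too, with -0.20 (clone 6) to 0.27 in post-nickel cells and -0.15 to -0.14 in ZEB1-low controls. On chromosome 9 the values were -0.20 (clone 1) to 0.18 and -0.16 to -0.09. DNA was not measured, and the part of gene copy number in these values was not tested.

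**Figure D4:**
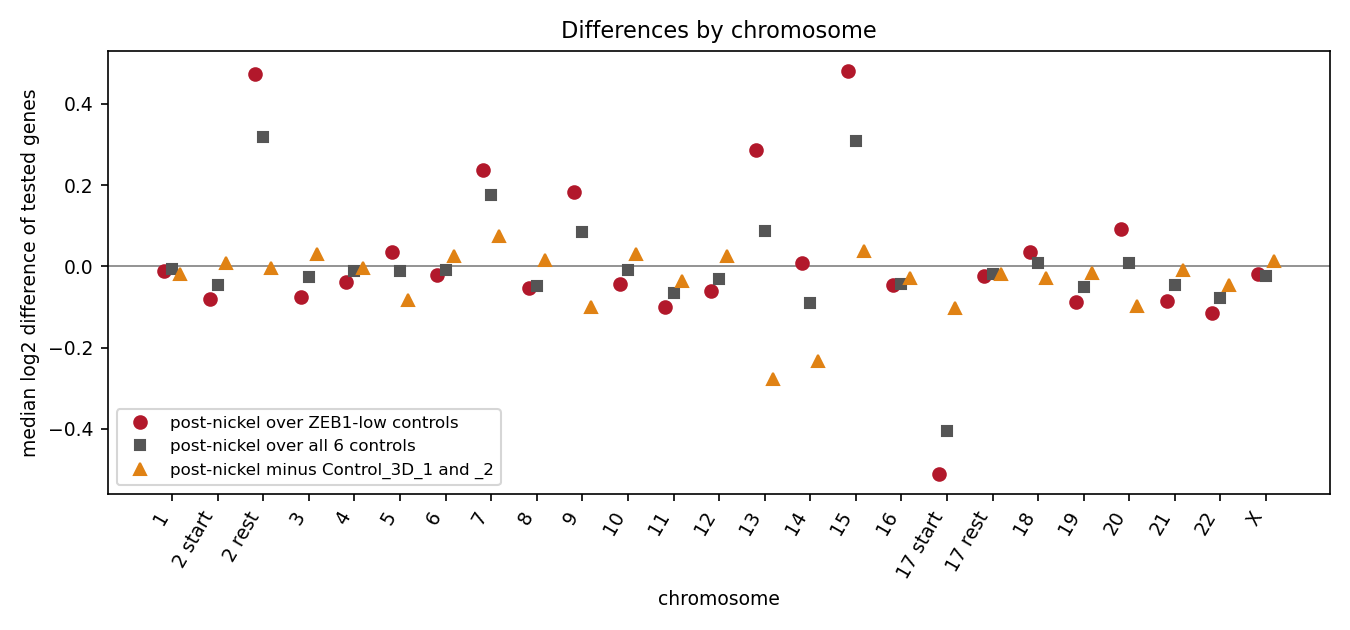
Median log2 difference of the tested genes of each chromosome (y axis, log2 units) for post-nickel cells over ZEB1-low controls (circles), over all 6 controls (squares) and minus Control_3D_1 and _2 (triangles); chromosomes 2 and 17 are divided into start and rest at 160 Mb and 20 Mb. Against ZEB1-low controls the median is 0.48 on chromosome 15, 0.47 on the rest of chromosome 2 and -0.51 on the start of chromosome 17.

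**Figure D5:**
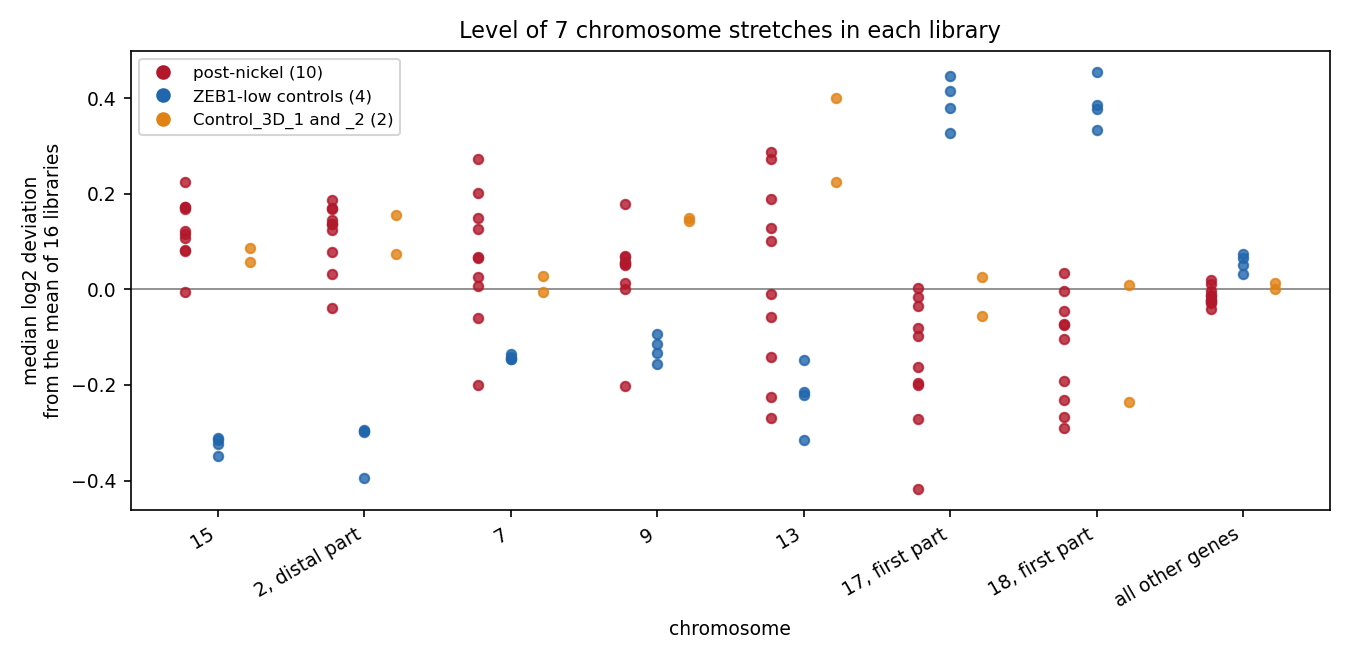
Median level of the genes of each region in each library, as log2 difference from the mean over the 16 libraries (y axis), with all genes outside the 7 regions at the right; each point is 1 library. On chromosome 15 the ZEB1-low controls lie at -0.35 to -0.31 and all others at -0.0048 or above, and on chromosome 17 before 20 Mb the ZEB1-low controls lie at 0.33 to 0.45 and all others at 0.03 or below.

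FN1, a matrix glycoprotein often read as a mark of EMT, was at 1039 and 1167 CPM in Ni_3D+14D, 585 and 611 CPM in Ni_6W+2W and 215, 1186, 2091, 669, 615 and 853 CPM in the clones, against 160.2, 104, 118 and 171 CPM in ZEB1-low controls. All 10 post-nickel libraries lay above these 4 (log2 fold change 2.71), but Control_3D_1 and _2 were higher still, at 3196 and 3123 CPM. With all 6 controls as reference FN1 therefore had a log2 fold change of -0.34 (0.816, edgeR adjusted p). FN1 lies in the chromosome 2 stretch described above.

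SNAI2, another repressor of epithelial genes, was at 6.03, 12.1, 9.45, 10.8 and 11.4 CPM in clones 2 to 6, while clone 1 had 1.35 CPM, Ni_3D+14D 1.18 and 1.56 CPM and Ni_6W+2W 3.10 and 1.06 CPM. ZEB1-low controls had 1.16, 0.355, 1.21 and 1.09 CPM and Control_3D_1 and _2 2.48 and 3.64 CPM, so the groups overlapped. SNAI2 was among the genes higher than in ZEB1-low controls, but not when any of clones 2, 3, 4 or 6 or any of the 4 controls was left out. Against all 6 it missed the threshold (log2 fold change 1.76, edgeR adjusted p = 0.102). VIM, the intermediate filament of mesenchymal cells, was at 1511 to 3547 CPM in post-nickel cells and at 1564 to 2774 CPM in the 6 controls (log2 fold change -0.04, edgeR adjusted p = 0.909). N-cadherin, CDH2, differed by -0.02 (0.899), ZEB2 by -0.03 (0.9) and EPCAM by -0.09 (0.882), none past the threshold in edgeR. CDH1 had -2.39 ± 0.75 (SE; edgeR adjusted p = 0.0618), beside a single high control, Control_3D_1 with 11.5 CPM. Without Control_3D_1 the CDH1 value was -0.41 (edgeR adjusted p = 0.668), and without Control_3D_2 it was -2.62 and passed the threshold (edgeR adjusted p = 0.0338). Against ZEB1-low controls CDH1 was not among the called genes, with a log2 fold change of -0.63. That value ran from -0.92 to 0.43 over 13 fits without 1 library.

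Gene lists, described by their counts and medians, are set against the 12.2% higher and 9.24% lower of all genes, whose median was 0.00, in the comparison with ZEB1-low controls, and against 3.41% and 4.06%, median -0.00088, with all 6 controls. After a gene called with all 6 controls, the first number in brackets is its log2 fold change and the second its adjusted p in edgeR. Of the list genes refitted against all 6 controls, only FBN1 and MEST kept their call without the 6 clones. POSTN, SMAD3, TYMS and SGCE kept their call with any single library left out, but lost it with the replicate block. Of 12 tested EMT transcription factors 5 were higher and 0 lower than in ZEB1-low controls (median 0.55): ZEB1, which chose the controls, TWIST1, TWIST2, GSC and SNAI2. With all 6 controls 0 of 12 were called (median 0.34). TWIST1 was not called without Control_6W_1 (log2 fold change 0.75), and GSC not without Control_3D_3, Control_3D_4 or Control_6W_2. TWIST2 had a lowest, median and highest value of 5.76, 8.36 and 14.3 CPM in post-nickel cells, against 3.44, 2.37, 3.29 and 1.99 CPM in ZEB1-low controls and 9.12 and 8.81 CPM in Control_3D_1 and _2. Of 55 mesenchymal and matrix genes 17 were higher and 4 lower (median 0.22), 9 of the rises lying in the 7 regions. With all 6 controls 2 rose and 1 fell (median 0.14). These were FBN1, the microfibril protein (0.91, edgeR adjusted p = 0.00147), LOXL1, an elastin cross-linking enzyme (1.10, 0.02), and POSTN, periostin (-2.86, 0.0154). The call of LOXL1 was lost without Control_3D_3 (0.0515), with the edgeR adjusted p in brackets.

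FBN1 had a lowest, median and highest value of 222, 275 and 319 CPM in post-nickel cells, against 125, 143, 136 and 113 CPM in ZEB1-low controls and 197 and 172 CPM in Control_3D_1 and _2, without overlap; it lies on chromosome 15. Of 45 epithelial junction and identity genes 7 were higher and 3 lower than in ZEB1-low controls (median 0.15). Among the higher ones was KRT19, a simple-epithelial keratin, with 1 read in the 4 controls and a ratio of 101-fold (95% interval 17.9 to 3983). ESRP2, an epithelial splicing regulator, averaged 5.53 ± 2.61 CPM in post-nickel cells and 0.891 ± 0.474 CPM in ZEB1-low controls (SD). PPL, periplakin of desmosomes, averaged 21.2 ± 11.3 CPM in post-nickel cells and 2.39 ± 0.536 CPM in ZEB1-low controls (SD). Against all 6 controls 2 rose, the integrin gene ITGA6 (0.74, edgeR adjusted p = 0.0242) and the epithelial factor ELF3 (1.51, 0.0318). The 2 that fell were AP1M2 (-1.18, 0.0387) and the desmosomal PKP3 (-0.41, 0.0413). Leaving out 1 library ended these calls, with the edgeR adjusted p then found in brackets: ITGA6 without Control_3D_3 (0.0649) or Control_3D_4 (0.0508) or Control_6W_1 (0.0612), ELF3 in 5 of 16 such fits (up to 0.0778, without Control_3D_3), AP1M2 in 10 of 16 such fits (up to 0.114, without Control_6W_1) and PKP3 in 11 of 16 such fits (up to 0.127, without Control_3D_4).

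Clustered protocadherins, cell surface proteins encoded side by side on chromosome 5, had 15 of 30 tested members higher and 0 lower than in ZEB1-low controls, with a median of 1.16. Transcripts of the cluster share 3' exons, so reads may be counted for several members and the single members are uncertain. The summed level was 215 to 266 CPM in post-nickel libraries and 127 to 155 CPM in ZEB1-low controls. In Control_3D_1 and _2 it was 245 to 269.9 CPM, close to post-nickel cells. ZEB1 split the controls, so this closeness is a description and not a result. PCDHGB5 averaged 29.9 ± 4.70 CPM in post-nickel cells and 11.6 ± 0.873 CPM in ZEB1-low controls (SD). Against all 6 controls 1 of 29 rose, PCDHGA11 (1.31, edgeR adjusted p = 0.0188; list median 0.49). Of 36 genes of axon guidance 11 were higher and 3 lower (median 0.15), and against all 6 controls 3 of 35 rose and 1 fell. These were SEMA4B (0.77, edgeR adjusted p = 0.00413), SEMA4D (0.54, 0.0275), ROBO3 (0.60, 0.0329) and, lower, EFNB2 (-1.77, 0.0243). Calls lost with 1 library left out, each with its edgeR adjusted p, were PCDHGA11 without Control_3D_3 (0.0508), SEMA4D without Control_3D_3 (0.0677) or Control_6W_1 (0.0643), ROBO3 in 4 of 16 such fits (up to 0.0824, without Control_6W_1) and EFNB2 without Control_6W_2 (0.0723).

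Of 21 imprinted genes 8 were higher and 0 lower than in ZEB1-low controls (median 0.42), 6 of them in the 7 regions. SNRPN, a spliceosome protein gene on chromosome 15 expressed from the paternal allele, had a lowest, median and highest value of 8.76, 18.3 and 30.3 CPM in post-nickel cells, against 0.0386, 0.355, 0 and 0.0603 CPM in ZEB1-low controls and 13.6 and 14.4 CPM in Control_3D_1 and _2. SNURF, which shares its transcript, had nearly the same values, so the 2 cannot be told apart. Against all 6 controls 4 of 20 rose (median 0.33), all in the 7 regions: MEST (0.94, edgeR adjusted p = 0.00657), SGCE (0.42, 0.0173), GRB10 (0.39, 0.0347) and ZDBF2 (0.57, 0.0348). MEST, an imprinted hydrolase gene, averaged 277 ± 83.5 CPM in post-nickel cells and 145 ± 13.9 CPM in controls (SD), and no library of the 2 sides overlapped. Leaving out 1 library ended these calls, with the edgeR adjusted p then found in brackets: GRB10 in 6 of 16 such fits (up to 0.0834, without Control_3D_3) and ZDBF2 in 7 of 16 such fits (up to 0.0978, without Control_3D_3).

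Hypoxia and HIF targets, which nickel is known to raise by blocking the oxygen-sensing hydroxylases, had 9 of 48 members higher and 0 lower than in ZEB1-low controls (median 0.19). In the comparison with all 6, 6 rose and 0 fell, with a median of 0.28, and none of the 6 lies in the 7 regions (NDRG1, DDIT4, PFKFB4, P4HA2, PPFIA4 and INSIG2). NDRG1, a stress-response gene, had a lowest, median and highest value of 90.0, 236 and 410.2 CPM in post-nickel cells, against 61.2, 127, 45.4 and 166 CPM in ZEB1-low controls and 41.1 and 81.8 CPM in Control_3D_1 and _2. The groups overlapped, with clone 5 and Ni_6W+2W_1 at the low end (1.45, edgeR adjusted p = 0.0269). P4HA2, a collagen prolyl hydroxylase, rose by 0.42 (0.01), PPFIA4, a liprin, by 1.40 (0.0154) and PFKFB4, which makes the activator of glycolysis fructose bisphosphate, by 0.53 (0.0271), with edgeR adjusted p in brackets. Calls lost with 1 library left out, each with its edgeR adjusted p, were NDRG1 without Control_3D_3 (0.0748) or Control_6W_1 (0.07) and PFKFB4 without Control_3D_3 (0.0725) or Control_6W_1 (0.0565). Without the 6 clones, where 21 genes were called in all, NDRG1, P4HA2, PPFIA4 and PFKFB4 each lost their call. DDIT4 and INSIG2 were not refitted in these ways. With Ni_6W+2W and the clones set against Control_6W, 1 of 48 was higher and 1 lower (median 0.10), beside 3.82% and 3.39% of all genes tested.

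Metallothioneins and zinc-response genes had 1 of 9 members higher and 3 lower than in ZEB1-low controls (median -0.50) and 0 of 9 called against all 6 (median -0.22). Their summed level was 413 to 774 CPM in post-nickel libraries, 565 to 1716 CPM in ZEB1-low controls and 372 to 395 CPM in Control_3D_1 and _2, the highest being Control_6W_2. The 3 lower genes, MT1X, SLC30A1 and SLC39A14, were not called without that library, and had log2 fold changes of -0.05, -0.42 and -0.33 then, against -1.91, -1.86 and -0.50 with it. NRF2 targets had 3 of 25 higher and 2 lower (median 0.04). Against all 6 controls 2 rose, the aldo-keto reductase AKR1C3 (1.55, edgeR adjusted p = 0.0144) and the exporter ABCC3 (1.77, 0.0339). Glutathione transferases had 2 of 13 higher and 1 lower (median 0.03), and with all 6 controls GSTK1 rose (0.45, edgeR adjusted p = 0.0244) and GSTZ1 fell (-0.42, 0.0216). Of 26 genes of cholesterol synthesis 0 were higher and 1 lower (median 0.26), and 0 were called against all 6. Leaving out 1 library ended these calls, with the edgeR adjusted p then found in brackets: ABCC3 without Ni_6W+2W_2 (0.0538) or Control_3D_3 (0.0756) or Control_6W_1 (0.059), GSTK1 without Control_6W_1 (0.0558) and GSTZ1 without Control_3D_3 (0.0535) or Control_3D_4 (0.0618) or Control_6W_2 (0.0515).

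Of 32 TGF-beta and BMP genes 4 were higher and 1 lower than in ZEB1-low controls (median 0.17), and against all 6 controls 1 rose, SMAD3 on chromosome 15 (0.70, edgeR adjusted p = 0.012). Of 25 Wnt genes 8 were higher and 2 lower (median 0.40). SFRP1, a secreted Wnt inhibitor, averaged 15.6 ± 8.07 CPM in post-nickel cells and 0.561 ± 0.352 CPM in ZEB1-low controls (SD), with 24.8 and 21.4 CPM in Control_3D_1 and _2. Beside all 6 controls the ligand WNT10A rose (1.58, edgeR adjusted p = 0.0333), and the ligand WNT7B (-1.69, 0.019) and the receptor-removing ligase ZNRF3 (-0.58, 0.0339) fell. Calls lost with 1 library left out, each with its edgeR adjusted p, were WNT10A in 5 of 16 such fits (up to 0.0835, without Control_6W_1), WNT7B without Control_6W_2 (0.0612) and ZNRF3 in 8 of 16 such fits (up to 0.08, without Control_3D_3).

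Chromatin repressors had 4 of 48 higher and 6 lower than in ZEB1-low controls (median 0.00), and against all 6 controls BMI1 (-0.47, edgeR adjusted p = 0.0248), CBX8 (-0.37, 0.036) and HDAC2 (-0.28, 0.0451) fell and 0 rose. BMI1 and CBX8 are Polycomb proteins and HDAC2 a histone deacetylase. Cell cycle genes had 2 of 40 higher and 7 lower (median -0.11), and against all 6 controls TYMS (-0.48, 0.0107), AURKB (-0.46, 0.0154) and CDC25A (-0.49, 0.0236) fell in edgeR. TYMS and AURKB lie in the regions of chromosomes 18 and 17. Of 24 p53 targets 1 was higher and 5 lower (median -0.28), and against all 6 controls 1 rose, PERP, a desmosomal protein (0.72, edgeR adjusted p = 0.0132). Leaving out 1 library ended these calls, with the edgeR adjusted p then found in brackets: BMI1 without Control_3D_3 (0.0978) or Control_6W_1 (0.0812), CBX8 in 10 of 16 such fits (up to 0.0933, without Control_6W_1), HDAC2 in 12 of 16 such fits (up to 0.15, without Control_3D_3), AURKB without Control_3D_3 (0.0549) and CDC25A without Control_3D_3 (0.0558) or Control_6W_1 (0.0773) or Control_6W_2 (0.0573).

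Of 28 NF-kB, cytokine and chemokine genes 0 were higher and 1 lower (median 0.15), while against all 6 controls 2 of 27 rose, CXCL6 (1.38, edgeR adjusted p = 0.0356) and BIRC3 (0.67, 0.0456). Of 38 interferon-stimulated genes 1 was higher and 2 lower (median -0.08), and against all 6 controls STAT2 rose (0.48, edgeR adjusted p = 0.0312) and IFI27 fell (-1.94, 0.0322). Calls lost with 1 library left out, each with its edgeR adjusted p, were CXCL6 in 6 of 16 such fits (up to 0.079, without Control_6W_1), BIRC3 in 11 of 16 such fits (up to 0.0924, without Control_3D_4), STAT2 without Ni_3D+14D_1 (0.0519) or Control_6W_1 (0.0567) or Control_6W_2 (0.0538) and IFI27 in 5 of 16 such fits (up to 0.108, without Control_3D_3). Markers of other cell types were mostly too low to test. Of 10 endothelial, 12 immune, 9 ciliated and secretory, and 10 alveolar markers in the files, 3 of each were tested, 1 immune marker (CD68) was lower and 1 of the ciliated and secretory markers, the ciliated cell marker CAPS, higher than in ZEB1-low controls. CAPS was not called without Control_3D_3 or Control_6W_2 (log2 fold change 0.65 and 0.51). It also rose against all 6 controls (0.69, edgeR adjusted p = 0.0209), though not without Control_3D_3 (0.0515), the only call there among these lists. Of the 16 luminal markers 8 were tested, 3 of them higher.

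Summed levels were 1.19 to 9.19 CPM in post-nickel libraries, 1.54 to 5.13 CPM in ZEB1-low controls and 2.02 to 2.86 CPM in Control_3D_1 and _2 for endothelial markers, and 35.3 to 65.9 CPM in post-nickel libraries, 46.4 to 75.6 CPM in ZEB1-low controls and 34 to 38 CPM in Control_3D_1 and _2 for immune markers. For ciliated and secretory markers they were 859.8 to 1558 CPM in post-nickel libraries, 1174 to 1288 CPM in ZEB1-low controls and 1535 to 1720.4 CPM in Control_3D_1 and _2. Alveolar markers summed to 54.1 to 85.5 CPM in post-nickel libraries, 49.8 to 69.8 CPM in ZEB1-low controls and 58.2 to 66.2 CPM in Control_3D_1 and _2. Under 1 CPM in all 16 libraries were 7 endothelial, 8 immune, 6 ciliated and secretory and 6 alveolar markers. Among those without any read in all 16 were the lymphocyte markers CD3D and MS4A1, the secretory marker BPIFA1 and the surfactant genes SFTPA1 and SFTPC. The ciliated and secretory sum was mostly TUBB4B, a tubulin gene that many cell types express. The part of other cell types in the differences was not tested.

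The long exposure can also be compared within its own experiment, as Ni_6W+2W and the clones together (8 libraries) against Control_6W (2), which are a whole label group. All 10 libraries are also in the comparison with ZEB1-low controls, so this is a second view of the same libraries and no independent support. In edgeR's quasi-likelihood test 1034 of 14328 genes (7.22%) changed, 548 (3.82%) higher and 486 (3.39%) lower. The count was 24 without Control_6W_2 and 1520 without Control_6W_1, 634 without clone 2 and 633 without clone 3. A lone control is then assumed to vary like the other libraries. All 8 libraries lay above both controls for 1417 genes (9.89%) and below them for 1289 (9%).

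OSBPL6 was at 5.08 to 9.56 CPM in the 8 libraries and without a read in Control_6W, at least 79.9-fold above a floor of 3 reads over both (edgeR adjusted p = 4.7e-05). GALC, at 2.37 to 9.14 CPM, was at least 68.8-fold above it (0.000434). MARK1 had a ratio of 444-fold (95% interval 79.6 to 17552; edgeR adjusted p = 0.00018) and SNRPN 617-fold (95% interval 111 to 24369; 0.00018). These genes and SNURF kept their call in every fit without 1 library. CADM3 had a ratio of 682-fold (95% interval 189 to 5630.4), CPVL of 304-fold (95% interval 54.5 to 12012) and RPS6KA2 of 183-fold (95% interval 50.6 to 1512). ROBO1 and PTPRN, without a read in Control_6W, were at least 101-fold and 81-fold above the floor, and SLC12A7, a potassium-chloride cotransporter, had a log2 fold change of 7.06. These 6 of the 12 named rises lost their call without Control_6W_2: ROBO1 (edgeR adjusted p = 0.274), CADM3 (0.219), CPVL (0.261), PTPRN (0.111), SLC12A7 (0.176) and RPS6KA2 (0.0797). ROBO1, CADM3 and CPVL lost it also without Control_6W_1 (0.0794, 0.0642 and 0.0614), and ROBO1 without clone 3 (0.0514).

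BCHE gave 1 read in the 8 libraries and was in Control_6W at 3.78 and 23.9 CPM, an inverse ratio of 2292-fold (95% interval 409 to 90733; edgeR adjusted p = 2.27e-05). TLL1, a protease that processes matrix proteins, averaged 0.0339 ± 0.0525 CPM in the 8 libraries and 6.07 ± 2.85 CPM in Control_6W (SD; log2 fold change -7.39, edgeR adjusted p = 0.000172). BCHE and TLL1 kept their call without Control_6W_2, with the log2 fold change of BCHE then -8.33, against -10.18 with both controls, and that of TLL1 -6.81, against -7.39. The other 10 named falls lost it, and the numbers in brackets are their log2 fold change with both controls, then without Control_6W_2, and the edgeR adjusted p without it: MMP3 (-4.76, -1.10, 0.694), PCDH7 (-4.30, -1.82, 0.612), FGF1 (-2.63, -0.79, 0.564), ARAP2 (-1.96, -0.56, 0.596), EFNB2 (-2.49, -0.97, 0.668), WNT7B (-2.50, -1.77, 0.352), DCDC2 (-2.75, -2.59, 0.257), MAP2K3 (-2.38, -1.14, 0.153), MMP16 (-2.07, -2.24, 0.114) and DOCK3 (-1.98, -2.0, 0.0613). FGF1, a fibroblast growth factor, was at 3.20 to 12.2 CPM in the 8 libraries, at 14.2 CPM in Control_6W_1 and at 87.1 CPM in Control_6W_2. PCDH7 lost its call also without clone 3 (0.0519), and EFNB2 without Ni_6W+2W_2 or any of clones 1 to 5 (0.0538 to 0.0642).

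Among the 3 post-nickel groups, 1 of 14386 genes (0.00695%) had an adjusted p under 0.05 in edgeR's F test over the groups, while 1111 had an unadjusted p under 0.05 and DESeq2 called 181. The called gene was NARR (chr17:27043011-27044908, hg19, minus strand; edgeR adjusted p = 0.00491), at 9.29 and 14.9 CPM in Ni_3D+14D, without a read in both Ni_6W+2W libraries and at 17.2 to 41.6 CPM in the clones. ZEB1-low controls had 33.4, 36.5, 4.49 and 0 CPM and Control_3D_1 and _2 16.2 and 31.8 CPM, so controls also spanned this range. The RefSeq gene table lists NARR as another name of RAB34, so reads of this locus may be divided between the 2 names and the value is uncertain. Without Ni_6W+2W_2 the count was 0, without Ni_6W+2W_1 it was 2, and without either Ni_3D+14D library it was 3.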

How the data were processed

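RNA-seq libraries of BEAS-2B cells, 20 in all, were deposited as tables with a read count and an RPKM value for each of 25411 RefSeq transcripts. The count values are, per the file headers, totals per transcript made by the authors; the RPKM values were deposited beside them and were not used here. The submitters' processing notes name STAR 2.4, DESeq, DESeq2, GRCh37 and hg19; how reads were counted, strand included, is not given in the sources used here. Tables were joined by RefSeq ID, because 28 gene symbols had been altered in 2 libraries.

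Levels are CPM scaled by TMM over the libraries used, with 0.5 CPM added before a log2. Tests were edgeR 4.0.16 (R 4.3.3) quasi-likelihood fits with robust dispersion, genes filtered at a minimum count of 10 and a total of 15, and calls at an adjusted p under 0.05 (Benjamini-Hochberg), on 1 mean per side, without covariates. The scripts were tested on simulated data. With 0 reads a floor of 3 reads over the group was used, and for 1 to 3 reads a 95% exact interval of the ratio; both cover counting error only. Genes were named by rule: 8 EMT genes, the 12 largest called rises and falls of each comparison with a mean of at least 5 CPM and no overlap of libraries, and up to 4 called genes per list with the smallest p. TWIST2, DDIT4, INSIG2, C14orf132, ZNF347, NCAM1, the keratins, TP63 and NARR were named after their values were seen. The members, the 23 gene lists and the chromosome regions were chosen with earlier results of these data known. Replicate numbers were not taken as pairs. Same-numbered libraries among the 14 had correlations of deviations from -0.148 to 0.266. Deviations mirror each other in a group of 2, and Control_3D_1 and _2 were not included, so pairing is not excluded by these values. Alternatives were DESeq2 1.42.0, its size factors, no filter, a replicate block, equal weight per label group, a term for the experiment, no clones, other controls and each library left out. Ni_3D, Ni_6W and the authors' comparison tables were not analysed here. A named rise of the long-exposure comparison and a marker gene are not reported here.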

Additional observations from a re-analysis of the deposited data

Results flagged for a closer look

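In each group of 4 to 10 libraries, for 124 genes named in the text, the highest or the lowest library was set against the others by Dixon's criterion. It stood apart in 44 of 242 groups, 19 among the post-nickel libraries and 25 among the ZEB1-low controls. For normally distributed values chance alone sets apart about 1 group in 20. The criterion was applied to CPM without a log, and the genes were named in part by their values. That rate therefore does not hold here, and nothing is read from the number of groups. No explanation was tested.

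Clone 1 stood apart from the other 9 post-nickel libraries in BDKRB2 at 39.8 CPM (others 3.20 to 8.80), ESRP2 at 12 CPM (others 2.81 to 6.68), GSTM2 at 0.232 CPM (others 2.11 to 3.92), MARK1 at 4.32 CPM (others 11.3 to 16.6), PCDHGB5 at 19.1 CPM (others 27.4 to 35.4) and ZDHHC23 at 15.5 CPM (others 4.72 to 8.56). Clone 6 stood apart in ABCC3 at 34.9 CPM (others 5.93 to 19.9), EPDR1 at 16.6 CPM (others 0.935 to 8.50), MGMT at 17.9 CPM (others 0.0464 to 8.67), NQO1 at 309 CPM (others 110.5 to 164) and TYMS at 187 CPM (others 226 to 267). For clone 2 these genes were POU4F1 at 7.07 CPM (others 0.632 to 3.58) and ROBO1 at 29.5 CPM (others 1.95 to 11.7). Clone 3 was high in COL5A1 at 761 CPM (others 184 to 439) and FN1 at 2091 CPM (others 215 to 1186). Clone 4 was high in COL8A1 at 59.1 CPM (others 7.80 to 33.6) and LOXL1 at 129.6 CPM (others 39.2 to 83.6). Ni_6W+2W_2 stood apart in AKR1C3 at 9.56 CPM (others 2.46 to 4.47). Ni_3D+14D_1 was low in SEH1L at 66.6 CPM (others 74.4 to 83.3).

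Control_6W_2 stood apart from the other 3 ZEB1-low controls in 18 genes, among them AKR1C3 at 3.02 CPM (others 0.711 to 0.987), ARAP2 at 35.3 CPM (others 5.57 to 8.22), BCHE at 23.9 CPM (others 3.78 to 5.57), CLSTN2 at 0.121 CPM (others 0), DSEL at 25.6 CPM (others 15 to 16.5) and EFNB2 at 69.5 CPM (others 8.77 to 16.7). Further genes were FGF1 at 87.1 CPM (others 13 to 17.4), MAP2K3 at 854 CPM (others 177 to 253), MMP3 at 17.4 CPM (others 0.711 to 1.08), MT1X at 71.8 CPM (others 4.33 to 7.46), PCDH7 at 41.5 CPM (others 2.37 to 4.11) and RDH10 at 37.8 CPM (others 11.1 to 12.6). The last of the 18 were SEH1L at 298 CPM (others 148 to 169.6), SLC30A1 at 193 CPM (others 22.4 to 28), SMAD3 at 261 CPM (others 151 to 162), SOCS1 at 1.57 CPM (others 2.20 to 2.30), WTIP at 130.0 CPM (others 69.3 to 79.3) and ZNRF3 at 55.4 CPM (others 26.5 to 29.5). Control_3D_3 stood apart in COL5A1 at 109.7 CPM (others 75.1 to 79.4), KRT19 at 0.0386 CPM (others 0), MEST at 129 CPM (others 151 to 156) and ROBO1 at 0.0772 CPM (others 0). Control_3D_4 stood apart in PTPRN at 0.118 CPM (others 0), SNAI2 at 0.355 CPM (others 1.09 to 1.21) and SNRPN at 0.355 CPM (others 0 to 0.0603). Values of 1 or a few reads among zeros, as in CLSTN2, KRT19, PTPRN and ROBO1, are at the limit of counting.

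NARR differed between the 3 post-nickel groups (adjusted p = 0.00491, F test in edgeR), with no read in both Ni_6W+2W libraries.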

How the results depend on the processing

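Between post-nickel cells and ZEB1-low controls 3015 genes were called, 1730 with Control_6W alone as controls and 1356 with Control_3D_3 and _4 alone. The counts without 1 library ran from 2100 to 3117, and DESeq2, its size factors, no filter, the replicate block (2548), equal weights, an experiment term and no clones each stayed within 1.5 times of 3015. Against all 6 controls 1037 were called, 1681 by DESeq2, 287 with the replicate block and 21 without the 6 clones, and 384 (without Control_3D_3) to 1593 (without Control_3D_1) with 1 library left out. For the long exposure against Control_6W 1034 were called, 1979 by DESeq2, 63 with the replicate block, and 24 (without Control_6W_2) to 1520 (without Control_6W_1). Equal weight per label group gave 1540 against all 6 controls and 838 for the long exposure. Among the post-nickel groups 1 gene was called, 181 by DESeq2, 2 without a filter, 0 with the replicate block and 0 to 3 without 1 library. The rule chose the same 4 controls by CPM of the total count. No named gene reversed its direction past the threshold under any alternative; calls were lost in 131 of 2225 gene fits against ZEB1-low controls, 268 of 1632 against all 6 and 43 of 465 for the long exposure. The causes were not tested. Totals differed by 5.32 times between the 16 libraries, the smallest being 8609243 reads, so low levels in that library carry the widest counting error.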
